A study of Rattus norvegicus with 12 samples.

Results

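The miR-34 family was examined in the soleus, a slow postural muscle of the calf, of adult male rat offspring whose mothers had eaten a control or a high fat diet. Its members were the miRNAs that the array named rno-miR-34a, rno-miR-34b and rno-miR-34c, without the strands marked with a star, which made 3 of the 677 rat miRNAs on the array. They were chosen by name and by no measured value, though earlier results of these data were known. miR-34a was detected in all 12 rats, with scaled signals of 637 ± 49.5 (SD, n = 6) in the control group and 647 ± 183 (SD, n = 6) in the high fat (HF) group, and miR-34b and miR-34c were detected in 0 of 12 rats. Hence 1 of the 3 members passed the filter of detection on at least 6 arrays.

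All 12 offspring were male Sprague-Dawley rats aged 1 year. The 6 control rats came from dams on standard chow. The 6 HF rats came from dams on a diet rich in saturated fat and sucrose before mating, in pregnancy and in lactation. After weaning both groups ate chow, so the diet of the dam was the labelled difference between them. Each rat gave 1 array of total RNA from whole soleus. The sources used here do not say which offspring shared a litter, nor which rats the smaller numbers in the study's text leave out, and all 12 arrays were used.

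miRNAs are short RNAs that silence messenger RNAs by pairing with them, mainly through the seed, bases 2 to 8 from the 5′ end. The miR-34 genes are direct transcriptional targets of the tumour suppressor p53, and their miRNAs silence messenger RNAs of cell cycle and survival proteins such as Cdk6, Met, Bcl2 and the deacetylase Sirt1. miR-34a is made in many tissues and is known to rise in the ageing heart, whereas miR-34b and miR-34c come from a shared primary transcript that is best known from ciliated epithelium, testis and lung.

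The guide strands of the 3 members are shown first because their shared seed, in capitals, is what makes them a family. The array tables hold no sequences, so these were taken from the RefSeq table of rat miRNAs for assembly GRCr8, in which all 3 members were matched by name.
miR-34a: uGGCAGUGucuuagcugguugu
miR-34b: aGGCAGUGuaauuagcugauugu
miR-34c: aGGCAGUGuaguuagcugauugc
miR-34a lay on chromosome 5, chr5:165815971-165815992 on the plus strand. miR-34b lay at chr8:60306657-60306679 and miR-34c at chr8:60306133-60306155, both on the minus strand of chromosome 8. The hairpins of Mir34b and Mir34c were 441 bases apart. In that annotation Mir34a overlapped the long non-coding RNA LOC103692514, between the genes H6pd and Gpr157, and Mir34b and Mir34c both overlapped Hoatz, next to Btg4.

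miR-34b and miR-34c were the closest pair, with the same base in 21 of 23 positions. They differed by the substitutions A11G and U23C, with the base of miR-34b first and positions counted from its 5′ end. miR-34a had the same base as miR-34b in 19 of 23 aligned positions and as miR-34c in 18 of 23, each with 1 gap. From base 2 the run of identical bases went to base 9 between miR-34a and either of the others, and to base 10 between miR-34b and miR-34c.

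Of the 693 mature rat miRNAs in the RefSeq table, 5 held the seed GGCAGUG. These were the 3 members and 2 miRNAs of the miR-449 cluster, a group known from ciliated cells. They are shown because a miRNA with the same seed could pair with the same target sites.
miR-449a: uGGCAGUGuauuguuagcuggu
miR-449c-5p: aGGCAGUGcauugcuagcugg
miR-449a lay at chr2:46403925-46403946 and miR-449c-5p at chr2:46402394-46402414, both on the plus strand. Against miR-34a, miR-449a had the same base in 17 of 23 aligned positions, with 2 gaps, and miR-449c-5p in 15 of 22, with 1 gap. The array held both of these relatives.

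The strand opposite the guide in each hairpin, named with a star on the array, is printed with its own bases 2 to 8 in capitals to show that it carries another seed. The seed of miR-34a* differed from the one that miR-34b* and miR-34c* shared.
miR-34a*: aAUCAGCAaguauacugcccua
miR-34b*: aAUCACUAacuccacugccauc
miR-34c*: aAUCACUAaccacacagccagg

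In the 102-base hairpin of Mir34a, the detected member's precursor, at chr5:165815952-165816053, both mature strands stand in capitals, the guide first.
Mir34a: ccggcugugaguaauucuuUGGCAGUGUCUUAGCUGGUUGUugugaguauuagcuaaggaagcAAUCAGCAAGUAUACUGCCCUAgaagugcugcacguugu

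The signals are brightness values of the scanner, summed per miRNA. For the comparison signals were scaled by the upper quartile (75th percentile) that each array had over the 162 miRNAs found in every rat, and a common factor returned them to signal units. That percentile ran from 864 to 1665 signal units in control rats and from 1178 to 1911 in HF rats. Between 177 and 220 miRNAs were detected per array, and 193 were detected on at least 6 arrays and tested. The array number limits the precision. The arrays lay on 2 slides, and each slide held 3 control and 3 HF rats. All 4 miRNAs listed for skeletal muscle (miR-1, miR-133a, miR-133b and miR-206) were detected in every rat. The HF rat H3 stood apart. Its summed signal of the slow muscle miRNAs miR-499 and miR-208b-3p was 366, against 5085 to 8061 in the other 5 rats of its group and 4588 to 9249 in control rats. Its summed signal of the vessel miRNAs miR-126, miR-143 and miR-145 was 4863, against 8811 to 11719 in the other 5 rats and 10082 to 12000 in control rats. For miR-34a, the log2 fold change, the ratio of SDs and the likeness to other miRNAs are therefore also given without this rat. Other results for miR-34a, among them those by slide, by other scalings and by array brightness, include it.

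miR-34a, the member that most tissues make, was measured well above the detection limit in every rat. As listed, before any scaling, its signal was 361 in C60, 550.0 in C73, 564 in A75, 581 in H10, 656 in A110 and 808 in A89, all control rats. In HF rats it was 514 in H3, 586 in A37, 629 in H20, 772 in H1, 829 in C51 and 931 in C25. The lowest listed signal was that of a control rat and the highest that of a HF rat, and the groups overlapped over most of their range. For comparison, the lowest signal of any detected miRNA was between 4.0 and 6.7 on each array. The error that the scanner software gave with each miR-34a signal was 7.29% to 7.62% of the signal.

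After scaling, the order of the rats changed. The scaled signal of miR-34a was 565 in C60, 621 in A75, 627 in H10, 633 in A110, 657 in A89 and 716 in C73, all control rats. In HF rats it was 415 in A37, 531 in H3, 533 in H20, 699 in C25, 813 in C51 and 888 in H1. Thus 3 HF rats lay below every control rat, 2 lay above every control rat and 1 lay within the control range. Neighbours in the order of the 12 rats lay within the scanner's error of each other, except A37 below H3, C60 below A75, C73 below C51 and C51 below H1.

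**Figure D1:**
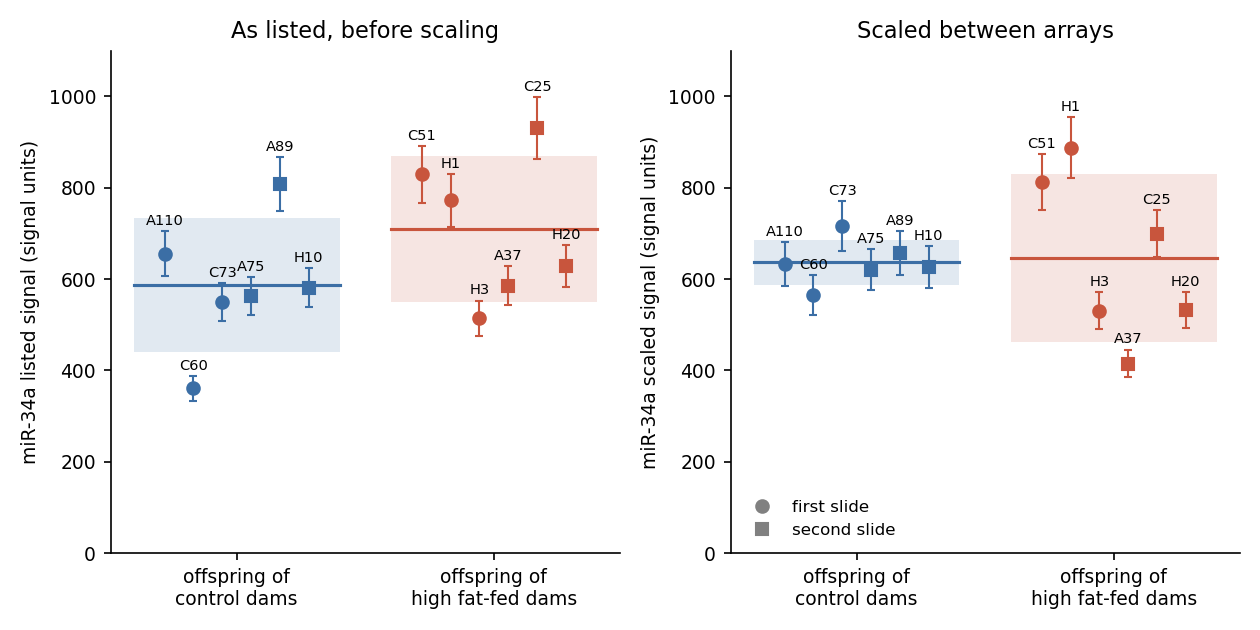
miR-34a signal of each of the 12 rats in signal units, as listed (left) and after scaling between arrays (right), by diet of the dam. Points are rats, circles the first slide and squares the second, bars the scanner software's error, lines group means and shaded bands ± 1 SD. After scaling, the control rats sit between 565 and 716 and the HF rats between 415 and 888.

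The question of the design was whether the dam's diet went with another level of miRNAs in the muscle of the adult offspring. For miR-34a the scaled group means, 637 and 647, differed by less than the spread between rats. The log2 fold change, HF over control, was -0.024 (SE 0.18, 95% interval -0.42 to 0.37), a fold of 0.983 with an interval from 0.747 to 1.29. The unadjusted limma p was 0.896, the Benjamini-Hochberg adjusted p 0.978, and exact two-sided permutation of the diets, with 924 assignments, gave p = 0.903. The arithmetic mean was slightly higher in HF rats and the mean of the log2 values slightly lower. In whole muscle, fewer cells of a type and less RNA per cell cannot be told apart. The p-values set the difference between the groups against the variation between these rats. Without rat H3 the log2 fold change was 0.022.

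The direction of this small difference depended on how the arrays were brought to one scale. Without scaling the means were 587 ± 146 (SD, n = 6) in control rats and 710.2 ± 160 (SD, n = 6) in HF rats, a log2 fold change of 0.29 (exact two-sided permutation p = 0.206). With the all-miRNA 75th percentile it was 0.15 (exact two-sided permutation p = 0.494), and with quantile normalization 0.11 (exact two-sided permutation p = 0.439). The scaling also moved the median log2 fold change of all 193 tested miRNAs, which was -0.17 with the scaling used here, 0.14 without scaling and 0.0041 with the all-miRNA 75th percentile. Relative to the median of all tested miRNAs, miR-34a stood at 0.14 with the scaling used here, 0.15 without scaling, 0.14 with the all-miRNA 75th percentile and 0.11 with quantile normalization. So it stood above the median of the tested miRNAs under each of these 4 scalings, while its own sign turned. One factor per array moves the log2 fold change of every miRNA above the floor by the same amount. The offsets without scaling and with either 75th percentile were therefore bound to be nearly equal. Among these scalings, only quantile normalization could give another offset.

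**Figure D2:**
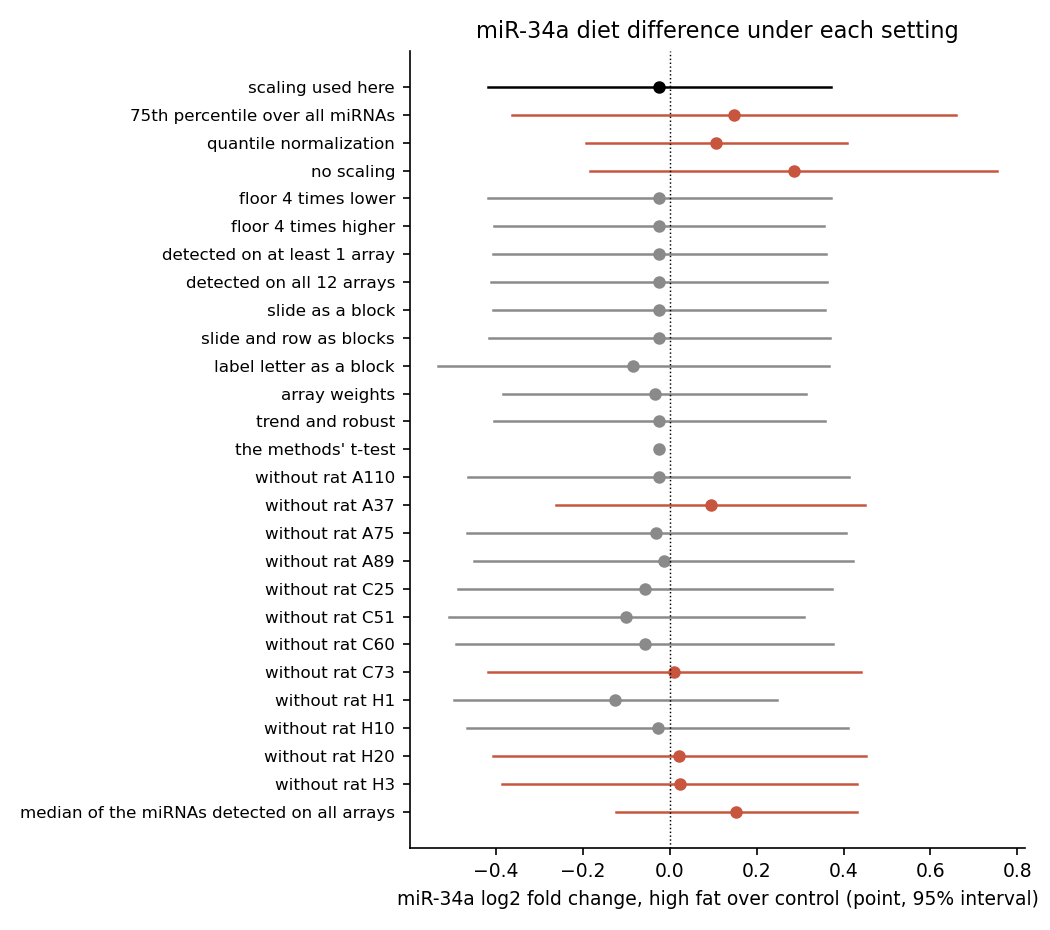
Log2 fold change of miR-34a, high fat over control, with the scaling used here (black) and under the other settings, each with its 95% limma interval, which the methods' t-test lacks here. Grey points are negative and orange points positive, and every interval drawn includes 0; the values run from -0.13 without rat H1 to 0.29 without scaling.

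On the first slide the mean scaled signal of miR-34a was 638 in control rats and 744 in HF rats. On the second slide it was 635 and 549. The log2 difference was therefore positive on one slide, at 0.19, and negative on the other, at -0.24. The difference between the slides was -0.44 (SE 0.34, limma unadjusted p = 0.225, adjusted p = 0.737), which did not pass the test. Permuting the diets within slides gave an exact two-sided p of 0.885 over 400 assignments. The slide tests were chosen after the values were seen.

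None of the 193 tested miRNAs passed an adjusted p under 0.05 in limma, a background of 0%, and at an unadjusted p under 0.05 limma called 2, both lower in HF rats, a background of 1.04%. This count was not stable. It was 15 of 190 without rat H1, 7 of 190 without C25, 6 of 193 without H10 and 1 of 192 without A110, and it was 12 of 193 with array weights and 8 of 193 with slide as a block. The methods' t-test likewise gave 2 at the unadjusted and 0 at the adjusted threshold. miR-34a was not among them, and its groups overlapped, as did those of all 193 tested miRNAs (0% without overlap).

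miR-34b and miR-34c, the members from the shared transcript, were not detected in any of the 6 control rats or 6 HF rats. The file listed each of them at 0.1 on every array, the value it gave to every undetected miRNA, so no level, fold or spread can be given. The opposite strands miR-34a*, miR-34b* and miR-34c* were likewise detected in 0 of 12 rats, and so were the seed relatives miR-449a and miR-449c-5p. Among the 5 miRNAs with the seed GGCAGUG shown above, miR-34a was thus the one detected. Of the 677 miRNAs on the array, 432 were detected in no rat. The correlation planned between members could not be computed with 1 detected member.

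With the scaling used here, miR-34a was spread more widely between HF rats than between control rats. The highest control rat was 1.27 times the lowest, and the highest HF rat was 2.14 times the lowest. The coefficient of variation was 7.77% in control rats, close to the scanner's own error, and 28.4% in HF rats. For log2 signals the SD was 0.11 against 0.42, a ratio of 3.76. An exact two-sided permutation test of the mean distance from the group's median gave p = 0.00433, a test chosen after the values were seen, for this miRNA alone. A larger SD in HF rats was common to most miRNAs, with 119 of the 162 detected on all arrays (73.5%) above a ratio of 1 and a median ratio of 1.37. In 6 of the 162, miR-34a included, the ratio was at least as large as that of miR-34a. Its SD in HF rats was near the median of the 162, which was 0.38, and 70 had one at least as large. Its SD in control rats was low beside a median of 0.27, and 7 had one as small or smaller, with miR-34a counted each time. The large ratio thus went with a narrow spread in control rats more than with an unusual one in HF rats.

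This difference in spread rested on the scaling. Without scaling the SDs were 0.38 in control rats and 0.33 in HF rats, a ratio of 0.856 (exact two-sided permutation p = 0.786). With the all-miRNA 75th percentile the ratio was 1.07 (exact two-sided permutation p = 0.944), whereas with quantile normalization it was 3.51 (exact two-sided permutation p = 0.0238). With the median of the miRNAs detected on all arrays, a scaling added after the data were seen, it was 9.75 (exact two-sided permutation p = 0.0195), with SDs of 0.028 and 0.27. Leaving out each rat in turn gave ratios from 3.06 to 5.21, with exact two-sided permutation p from 0.00433 to 0.0130, and without H3 it was 4.05 (exact two-sided permutation p = 0.0130).

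**Figure D3:**
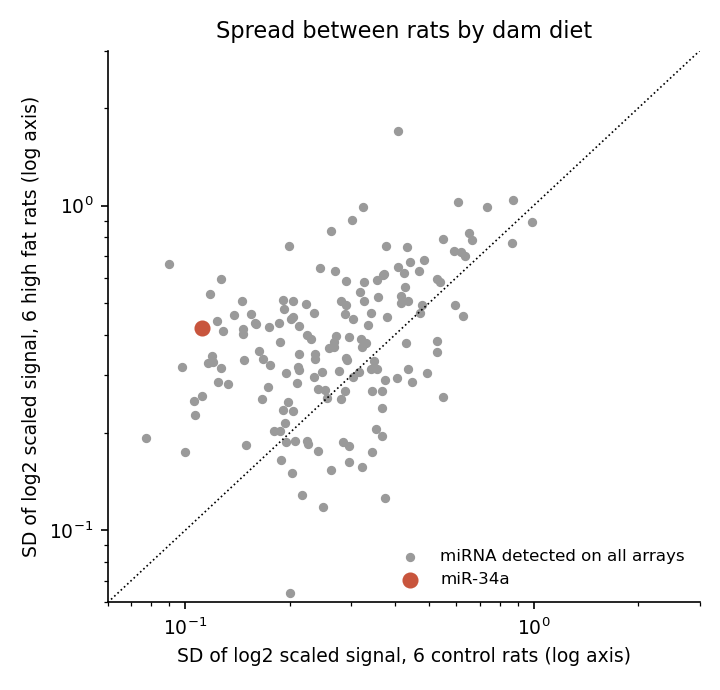
SD of the log2 scaled signal between the 6 control rats (horizontal, log axis) and between the 6 HF rats (vertical, log axis), for the 162 miRNAs detected on all arrays. The dotted line marks equal SDs; miR-34a, in orange, lies above it at 0.11 and 0.42.

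The miR-34a signal was also set against the brightness of the arrays. Over the 12 rats the listed signal and the array's 75th percentile had a Pearson r of 0.580 (permutation p = 0.0492, adjusted p = 0.0984 over 4 tests) and a Spearman rho of 0.615 (permutation p = 0.0373, adjusted p = 0.0984). Without A37 and C60, the rats farthest from the median percentile, r was 0.653, and within the slides it was 0.695 and 0.507. For the scaled signal r was -0.316 (permutation p = 0.319, adjusted p = 0.425) and rho -0.238 (permutation p = 0.455, adjusted p = 0.455). Without the same rats r was -0.246, and within the slides 0.177 and -0.357. None of these relations passed the adjusted threshold, and they were examined after the values were seen. The scaled signal is the listed signal divided by this same percentile, times a common factor. Its relation to the percentile is therefore no separate check of the scaling.

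Other miRNAs of the p53 pathway were taken from lists. The first held 12 miRNAs that p53 is reported to raise, by transcription or by processing of their precursors. Of these, 10 were on the array and 7 were tested: miR-16, miR-107, miR-143, miR-145, miR-22, miR-192 and miR-194. In HF rats 1 had a higher and 6 had a lower mean log2 signal, and 0 passed an unadjusted limma p under 0.05, beside 2 of the 193 tested miRNAs (1.04%). Their median log2 fold change was -0.14 (range -0.22 to 0.39), and that of all 193 tested miRNAs was -0.17, with 39 higher and 154 lower (79.8% lower). Relative to that median, 5 of the 7 stood above it. The signs depended on the scaling, since without scaling 7 of the 7 and 153 of the 193 had a higher mean in HF rats, and with the all-miRNA 75th percentile 5 of the 7 and 99 of the 193. Log2 fold changes of other members of the list were -0.071 for miR-107, -0.060 for miR-22 and -0.21 for miR-145, with the scaling used here. miR-215, miR-200c and miR-141, known from gut, kidney and other epithelia, were detected in 0 of 12 rats.

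miR-143, made together with miR-145 and abundant in smooth muscle, had a scaled signal from 5358 to 6492 (median 5646) in control rats and from 2813 to 6369 (median 5431) in HF rats. The lowest of the 12 was rat H3, and the groups overlapped. The log2 fold change was -0.22 (SE 0.19, limma unadjusted p = 0.279, adjusted p = 0.700), with slide values of -0.30 and -0.13, and it was -0.049 without H3. miR-16, which silences cyclins and Bcl2, ran from 3864 to 5503 (median 4785) in control rats and from 3147 to 5101 (median 4386) in HF rats. Its log2 fold change was -0.14 (SE 0.15, limma unadjusted p = 0.357, adjusted p = 0.722), with slide values of 0.026 and -0.31, and -0.060 without rat A37. Its groups overlapped too. Without scaling the sign turned for both, to 0.094 for miR-143 and 0.17 for miR-16.

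miR-194, which the study followed further and which shares transcripts with miR-192 and miR-215, was near the detection limit. It was detected in 3 of 6 control rats and 5 of 6 HF rats, with a log2 fold change of 0.39 (SE 0.39, limma unadjusted p = 0.344, adjusted p = 0.717) that depended on the floor set for undetected rats. With a floor 4 times lower it was 1.05 and with one 4 times higher 0.0079, and over the rats left out in turn it ran from 0.20, without H1, to 0.61, without H3. These values were positive, whereas the study reported less miR-194 in HF offspring, by array and by quantitative PCR, in smaller numbers of rats. The cause of this difference was not tested.

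The second list held 11 miRNAs reported to act on p53 messenger RNA or on regulators of p53, all on the array, of which 9 were tested. Of these, 1 had a higher and 8 had a lower mean log2 signal in HF rats, beside 154 of the 193 tested miRNAs lower (79.8%). In the list 0 passed an unadjusted limma p under 0.05, beside 2 of the 193 (1.04%). The 9 had a median log2 fold change of -0.067 (range -0.36 to 0.36), and 7 of them stood above the median of all tested miRNAs. Without scaling 8 of the 9 and 153 of the 193 had a higher mean in HF rats. With the all-miRNA 75th percentile it was 7 of the 9 and 99 of the 193. miR-29a, miR-29b and miR-29c, known to raise p53 by silencing p85α and Cdc42, had log2 fold changes of -0.027, -0.034 and -0.067. miR-25 and miR-30d, which target p53 messenger RNA, had -0.075 and -0.025. miR-504 was detected in 0 rats, and miR-222, detected in 2, was not tested.

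miR-125b-5p, which represses p53 messenger RNA directly, had the smallest unadjusted p of both lists. Its scaled signal ran from 4261 to 7271 (median 5620) in control rats and from 3244 to 6271 (median 3783) in HF rats. The median of the HF rats lay below every control rat, and the highest HF rats overlapped the controls. The means were 5625 ± 1150 (SD, n = 6) and 4448 ± 1279 (SD, n = 6), a log2 fold change of -0.36 (SE 0.20, 95% interval -0.79 to 0.075, limma unadjusted p = 0.0968, adjusted p = 0.685). The slides gave -0.36 and -0.35, and unscaled signals gave -0.050.

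**Figure D4:**
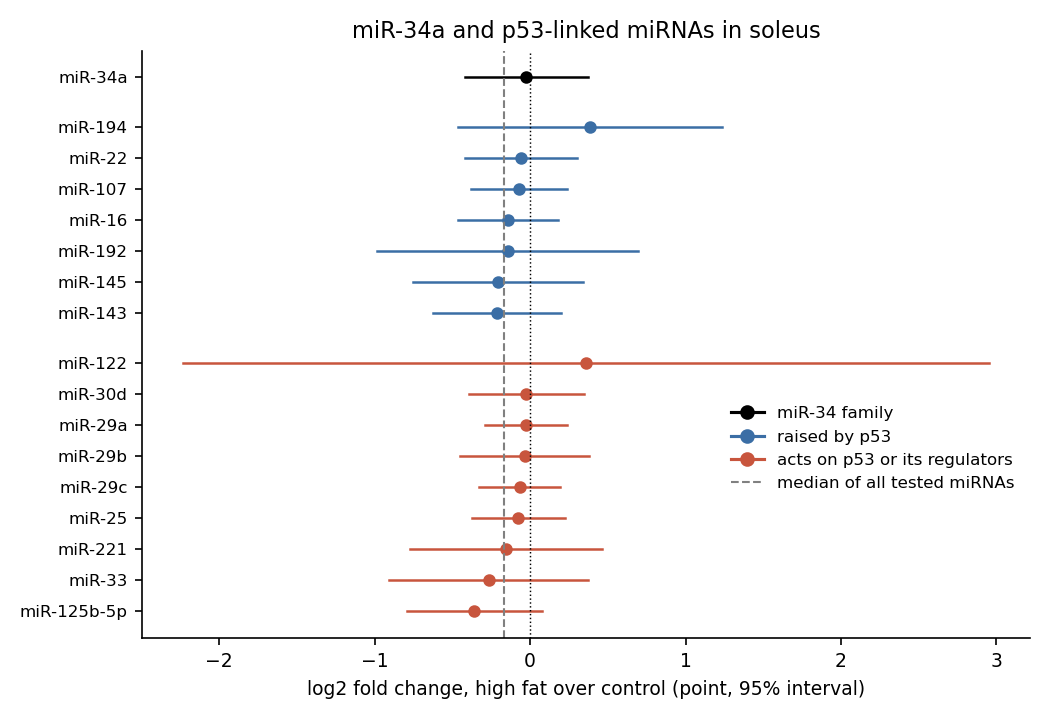
Log2 fold change, high fat over control, of miR-34a and the tested miRNAs of the p53 lists, with 95% limma intervals. The dashed line is the median of the 193 tested miRNAs, -0.17, and the dotted line 0; all intervals include 0, and that of miR-122, detected in 10 rats, is the widest.

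The miRNAs whose scaled signals ranked the 12 rats most like miR-34a, among the other 161 detected on all arrays, were miR-192 (Spearman rho 0.818), let-7i, miR-195 and miR-30b-3p (each 0.804) and miR-503 (0.783). These values describe the same 12 arrays, which share the scaling, and carry no p. Over all 161 the rho ran from -0.587 to 0.818, with a median of 0.294 and 129 above 0. The 6 miRNAs of the first p53 list detected on all arrays had a median of 0.301, and the 8 of the second had 0.234.

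miR-192, a p53 target and the highest of the 5, ran from 22.5 to 83.7 (median 45.7) in control rats and from 13.6 to 67.0 (median 48.7) in HF rats. Its lowest rat was H3. The likeness depended on the scaling. Among the 161 miRNAs, miR-192 took place 33 without scaling, place 112 with the all-miRNA 75th percentile and place 33 with quantile normalization. With quantile normalization the rho was 0.318 for miR-192, 0.364 for let-7i, 0.496 for miR-195, 0.267 for miR-30b-3p and 0.191 for miR-503. Without H3, on the scaling used here, the 5 values were 0.791, 0.745, 0.764, 0.900 and 0.736 in that order. Within control rats they were 0.943, 0.829, 0.886, 0.771 and 0.143, and within HF rats 0.943, 0.943, 0.771, 0.771 and 0.943. The likeness of miR-503 was thus weak among control rats. The log2 fold changes of the 5 between the diets were -0.14, -0.22, -0.30, -0.11 and 0.061, and 0 passed an unadjusted limma p under 0.05.

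**Figure D5:**
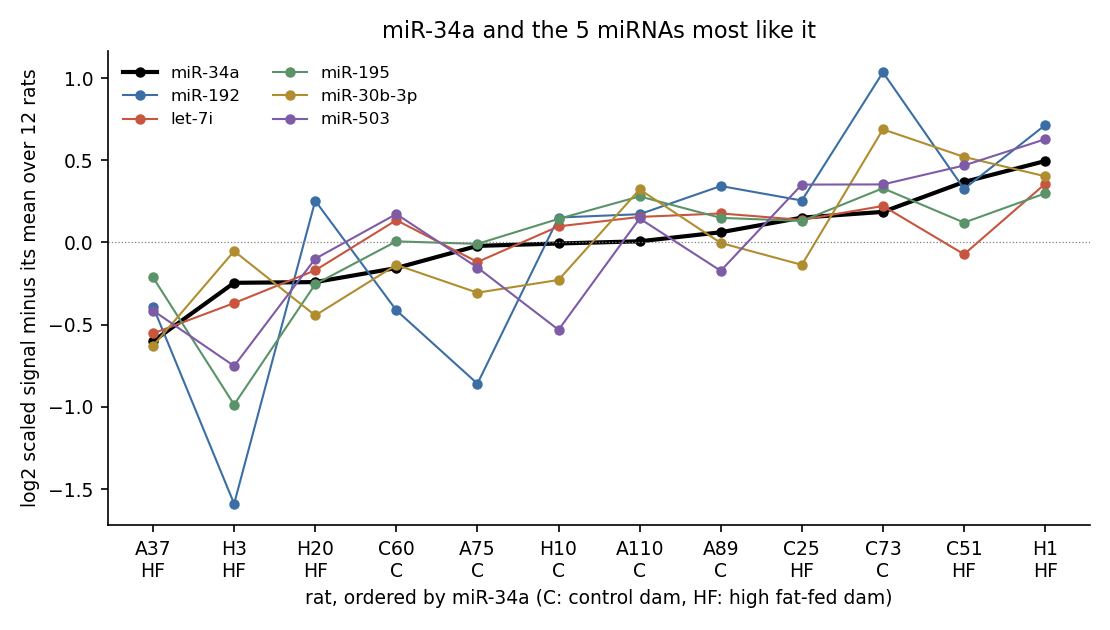
Log2 scaled signal of miR-34a (black) and the 5 miRNAs most like it, each minus its mean over the 12 rats, with rats ordered by miR-34a from A37 to H1. C marks control rats and HF the rats of high fat-fed dams; the deepest point is miR-192 in H3.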

How the data were processed

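Soleus RNA of 6 control and 6 HF rats was labelled with Cy3 and hybridised to Agilent rat miRNA arrays, with groups taken from the labels. The authors deposited, per array, the scanner software's total intensity for every miRNA, with an error and a flag for detection, without normalization between arrays. Their value table held the same signals, with 0 differing cells. Human samples were not analysed here. The files name no genome build, and coordinates and sequences come from the RefSeq GRCr8 table.

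The 22 control rows were left out. Each array was scaled by its 75th percentile over the 162 miRNAs detected throughout. Scaled signals below a floor of 5.17, the arrays' median lowest detected signal, were set to it before log2, undetected miRNAs included. High fat minus control was fitted in limma 3.58.1 under R 4.3.3 with no covariate, adjusted by Benjamini-Hochberg over 193 miRNAs. Single values were tested by exact permutation, and correlations with 100000 permutations, in scipy 1.17.1 under Python 3.11.15. The fit was tested on simulated data. Alternatives covered the scaling, floor, detection filter, slide, array row and label letter as blocks, array weights, other tests and each rat left out. There were 0 value columns of no known sample.

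The named miRNAs were the members, their opposite strands, their seed relatives and the 5 most alike. From the p53 lists came the 3 miRNAs with the smallest unadjusted p-values among those detected on all arrays. miR-194 was added as one that the study lists in its rat results. The study's human results also list miR-125b, miR-29b and miR-30d, which were not compared here. Other values given for list members were added after they were seen. The members and lists were chosen with earlier results of these data known.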

Additional observations from a re-analysis of the deposited data

Results flagged for a closer look

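Of 20 groups of 6 rats examined, 2 held a rat whose gap to its nearest neighbour, divided by the group's range, was above Dixon's critical value for 6 samples, where chance gives about 1 in 20. In HF rats, miR-143 had a scaled signal of 2813 in rat H3 and 4770 to 6369 in the other 5, a gap of 0.646 of the range. In control rats, let-7i had a scaled signal of 4127 in rat A75 and 4797 to 5227 in the other 5, a gap of 0.636. miR-34a had no such rat in either group.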

How the results depend on the processing

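Under 27 alternatives, 26 planned and 1 chosen after the data were seen, the log2 fold change of miR-34a ran from -0.13 to 0.29 and its unadjusted limma p from 0.212 to 0.958, so its sign is not settled. It turned positive under 8, at 0.29 without scaling, 0.15 with the all-miRNA 75th percentile, 0.11 with quantile normalization, 0.15 with the median of the miRNAs detected on all arrays (the later one), 0.093 without rat A37, 0.010 without C73, 0.021 without H20 and 0.022 without H3. Leaving out each rat gave -0.13 to 0.093. The count of miRNAs with an adjusted p under 0.05 was 0 under all 27. The count of p53-linked miRNAs with an unadjusted p under 0.05 was 0, and became 1 with the all-miRNA 75th percentile or quantile normalization (miR-194 in both), and with array weights, without C25 and without H1 (miR-125b-5p in these 3), with a range of 0 to 1 over the rats left out. Calls over all tested miRNAs, 2 of 193, rose in the same settings, to 3 and 5 of 193 with those scalings, 12 of 193 with array weights, 7 of 190 without C25 and 15 of 190 without H1. Over the other alternatives they ran from 1 to 8. miR-143 turned to 0.094 without scaling, and miR-16 to 0.029 with the all-miRNA 75th percentile, 0.10 with quantile normalization, 0.17 without scaling and 0.035 with the median. The ratio of SDs of miR-34a, 3.76, fell to 0.856 without scaling and 1.07 with the all-miRNA 75th percentile, was 3.51 with quantile normalization and 9.75 with the later median scaling, and ran from 3.06 to 5.21 over the rats left out. The cause of these changes was not tested. miR-34b and miR-34c could not be fitted under any alternative, and miR-194 had no value with detection on all arrays. No paired analysis was possible because the labels of the groups share no replicate numbers. A signal under the detection limit has no level, and with 6 rats a group the miR-34a interval still allows folds from 0.747 to 1.29.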

Other observations

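The rats' labels begin with letters that the sources used here do not explain, A for 3 control and 1 HF rat, C for 2 of each, and H for 1 control and 3 HF rats. Blocking on that letter, miR-34a had a log2 fold change of -0.085.

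Of the markers of other cell types, the epithelial miRNAs miR-200c, miR-141 and miR-429 were detected in 0 rats, as was miR-449a of ciliated epithelium. The epithelial miRNAs miR-200a and miR-200b were each detected in 1 rat, a HF rat. The liver miRNA miR-122 was detected in 10 rats, with a scaled signal of 0 to 406 in control rats and 0 to 302 in HF rats. Of the 3 brain and nerve miRNAs, miR-218 was detected in 12 rats, miR-9 in 1 and miR-124 in 0, with a summed scaled signal of 22.9 to 89.02 in control rats, 28.9 to 41.4 in 5 HF rats and 113 in H3. The summed scaled signal of the epithelial list was 21.0 in rat H3 and 0 in the other 11 rats. All 5 blood cell miRNAs on the array were detected in every rat, with a summed scaled signal of 1642 to 3933 in control rats and 1436 to 4211 in HF rats, where H3 had the highest.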
